A study of Mus musculus with 6 samples.

Results

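The 39 genes examined here belong to solute carrier (Slc) families of amino acid and peptide transporters, and their mRNA was compared between kidneys of iron-deficient (FeD) and control mouse pups. They were chosen by symbol as plasma membrane and lysosomal carriers of amino acids or peptides, and all 39 were found among the 24422 genes of the count tables. All 39 also passed the filter on low counts that left 15145 genes for testing. All pups were wild type C57BL/6 mice studied at postnatal day 15. FeD pups had dams fed synthetic chow that held 2 to 6 ppm iron, whereas dams of the control pups were fed 220 ppm iron. Dams entered at 8 weeks of age, ate their diet for 1 month before mating and stayed on it until the pups were 15 days old, so the pups met the diet in the womb and through milk. A separate kidney library was sequenced for each of 3 control and 3 FeD pups, and the values are raw read counts per gene. The labels do not give litters, so diet and litter cannot be told apart. The P values set the difference between groups against the spread between kidneys within a group.

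Amino acids and small peptides are filtered at the glomerulus and reclaimed almost completely by the proximal tubule. Carriers of the brush border move them from the tubule fluid into the cell, mostly with sodium or protons, and carriers of the basolateral membrane pass them on to the blood or exchange them. Several of these carriers work only as pairs of a light chain of the Slc7 family and a heavy chain, Slc3a1 (rBAT) or Slc3a2 (4F2hc), and other members serve the general uptake of amino acids by cells or sit in the lysosome, where amino acid supply is sensed.

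Counts on genes totalled 13732173 to 20853293 per kidney, and the 39 members held 0.361% to 0.383% of them. A floor of 3 counts stood at 0.144 to 0.218 CPM, for counting error only. Normalized counts below are raw counts scaled by edgeR's TMM factors to the mean library size. Xist, the RNA of the inactive X chromosome, had 15410.4, 14238 and 41.8 normalized counts in control kidneys 1, 2 and 3 and 28, 48 and 16079 in FeD kidneys 1, 2 and 3, and the Y-linked Ddx3y was high in the other 3 kidneys. Kidneys with Xist were thus control kidneys 1 and 2 and FeD kidney 3. With a term for this split in the fit, 10 members were still called higher and 11 lower. The 5 adrenal cortex genes summed to 10716 normalized counts in FeD kidney 2 and to 139.7 to 301 in the other 5 kidneys, and the calls of members that changed without that kidney are given with them. The 6 general proximal tubule markers were abundant in every kidney, with sums of 131343, 140264 and 137205 in control and 65329, 62781 and 59035 in FeD kidneys, and 5 of the 6 fell. The phosphate carrier Slc34a1 made up most of that difference (adjusted P = 1.65e-05, log2 fold change -2.22). In whole kidneys, fewer proximal tubule cells and less RNA per cell cannot be told apart.

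Of the 39 transporters, 10 rose and 11 fell in FeD kidneys at an adjusted P under 0.05, and 18 did not pass. Among all tested genes 22.4% rose and 23.3% fell, so the share of called members, 53.8%, stood beside 45.7% overall. At least 2-fold changes were found in 3 members that rose, Slc43a1, Slc7a2 and Slc1a4, and in 4 that fell, Slc7a10, Slc6a20b, Slc36a2 and Slc7a13. The background for that rule was 4.34% higher and 5.69% lower. All values of FeD lay above all control values in 10 members and below them in 14, and over all tested genes 58.1% had groups that did not overlap. The median log2 fold change was -0.028 for the members and -0.0018 for all tested genes. Their median absolute log2 fold change was 0.58, against 0.32 for all tested genes. The members thus moved in both directions around a centre near 0. By place, 1 of the 11 brush border members rose and 4 fell, 1 of the 8 basolateral members rose and 3 fell, 6 of the 14 members of cell uptake and exchange rose and 2 fell, and 2 of the 6 lysosomal or intracellular members rose and 2 fell.

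**Figure D1:**
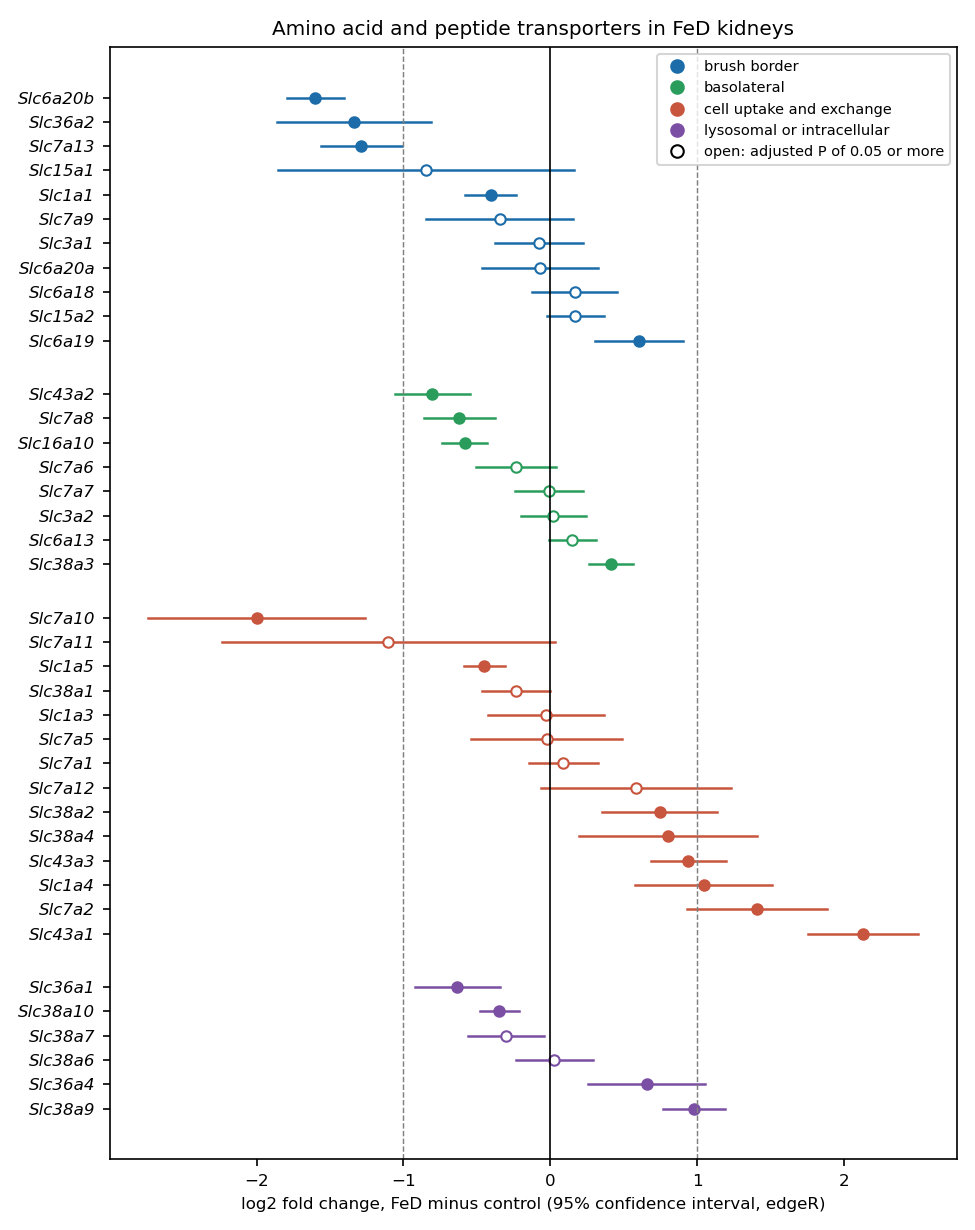
The log2 fold change of each of the 39 transporters (FeD minus control, x axis) is plotted with its 95% confidence interval from edgeR, grouped by place on the y axis, with filled points for an adjusted P under 0.05 and dashed lines at 2-fold. Slc43a1 lies farthest to the right at 2.13 and Slc7a10 farthest to the left at -1.998, and the brush border group holds 3 filled points beyond the left dashed line.

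At the brush border, the clearest loss was that of Slc6a20b, a relative of the imino acid carrier Slc6a20a. Slc6a20b had 1940.2, 2129.6 and 2035 normalized counts in the control kidneys and 671, 741 and 604 in the FeD kidneys (log2 fold change -1.60, SE 0.085, adjusted P = 1.55e-05). Every FeD kidney was far below every control kidney. The gene lies at chr9:123502938-123541683 on the minus strand of mm9. Of the 100-base windows of its transcripts, 11.4% recur in Slc6a20a, so part of its reads may have been left out or shared. Slc36a2 encodes a proton-coupled carrier of glycine and proline. Its counts were 211, 247 and 240.2 in control and 104, 116 and 59.6 in FeD kidneys (log2 fold change -1.34, SE 0.23, adjusted P = 0.00215). The groups did not overlap, and FeD kidney 3 was the lowest. Slc7a13 encodes a light chain for aspartate, glutamate and cystine that pairs with Slc3a1 in the late proximal tubule. It had 884, 869.5 and 1118 normalized counts in control and 358, 418 and 403 in FeD kidneys (log2 fold change -1.29, SE 0.12, adjusted P = 1.45e-04). The 3 FeD kidneys were close to each other, and control kidney 3 was the highest. A smaller fall was seen in Slc1a1, the carrier of glutamate, aspartate and cysteine (log2 fold change -0.40, SE 0.075, adjusted P = 0.00315).

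The brush border member that rose was Slc6a19, the main sodium-dependent carrier of neutral amino acids. Slc6a19 had 2272, 2488 and 2270.4 normalized counts in control and 4025, 3872 and 2792 in FeD kidneys (log2 fold change 0.60, SE 0.13, adjusted P = 0.00623). Its groups did not overlap, but FeD kidney 3 stood much nearer to the controls than FeD kidneys 1 and 2. Without FeD kidney 3 its log2 fold change was 0.77 (adjusted P = 4.98e-05), the highest value when each kidney was left out, and the lowest was 0.52. The gene passed under all 13 alternatives, with an adjusted P of up to 0.0315. Slc6a18, which carries glycine and other neutral amino acids in the later proximal tubule, had 11575, 12401 and 11755 normalized counts in control and 13368, 10947 and 15793 in FeD kidneys and did not pass (adjusted P = 0.31, log2 fold change 0.17). Its 3 FeD kidneys spread from below the lowest control to above the highest. Without FeD kidney 2, the kidney with adrenal genes, Slc6a18 passed as higher (adjusted P = 0.0313). Slc6a20a had 354, 337 and 386 normalized counts in control and 309, 271 and 443 in FeD kidneys and did not pass either (adjusted P = 0.772, log2 fold change -0.068), with a 95% interval of -0.46 to 0.33. Reads of 16% of its exon bases could also come from genes on the opposite strand. Of the windows of its transcripts, 14.2% recur in the more abundant Slc6a20b. The peptide carriers did not pass. Slc15a2 (PEPT2), the high-affinity carrier of the kidney, had a log2 fold change of 0.17 (95% interval -0.024 to 0.37, adjusted P = 0.133). Slc15a1 (PEPT1), with 12 to 37 raw counts per kidney, had one of -0.84 (95% interval -1.85 to 0.16, adjusted P = 0.148).

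Slc3a1 and Slc7a9 form the brush border carrier of cystine and basic amino acids that is defective in cystinuria. Slc3a1 had 4829, 5183 and 4837 normalized counts in control and 4252, 4032 and 5784 in FeD kidneys (log2 fold change -0.077, SE 0.13, adjusted P = 0.657). Slc7a9 had 1598, 1769 and 1615 in control and 1591, 1533 and 809.7 in FeD kidneys (log2 fold change -0.34, SE 0.22, adjusted P = 0.231). Neither passed, and in both genes FeD kidney 3 stood apart from FeD kidneys 1 and 2, with the highest Slc3a1 and the lowest Slc7a9 of the 6 kidneys. Without FeD kidney 3 the log2 fold change of Slc3a1 was -0.24 (adjusted P = 0.011) and that of Slc7a9 was -0.075 (adjusted P = 0.338). Of the exon bases of Slc3a1, 26.4% overlap Prepl on the opposite strand.

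**Figure D2:**
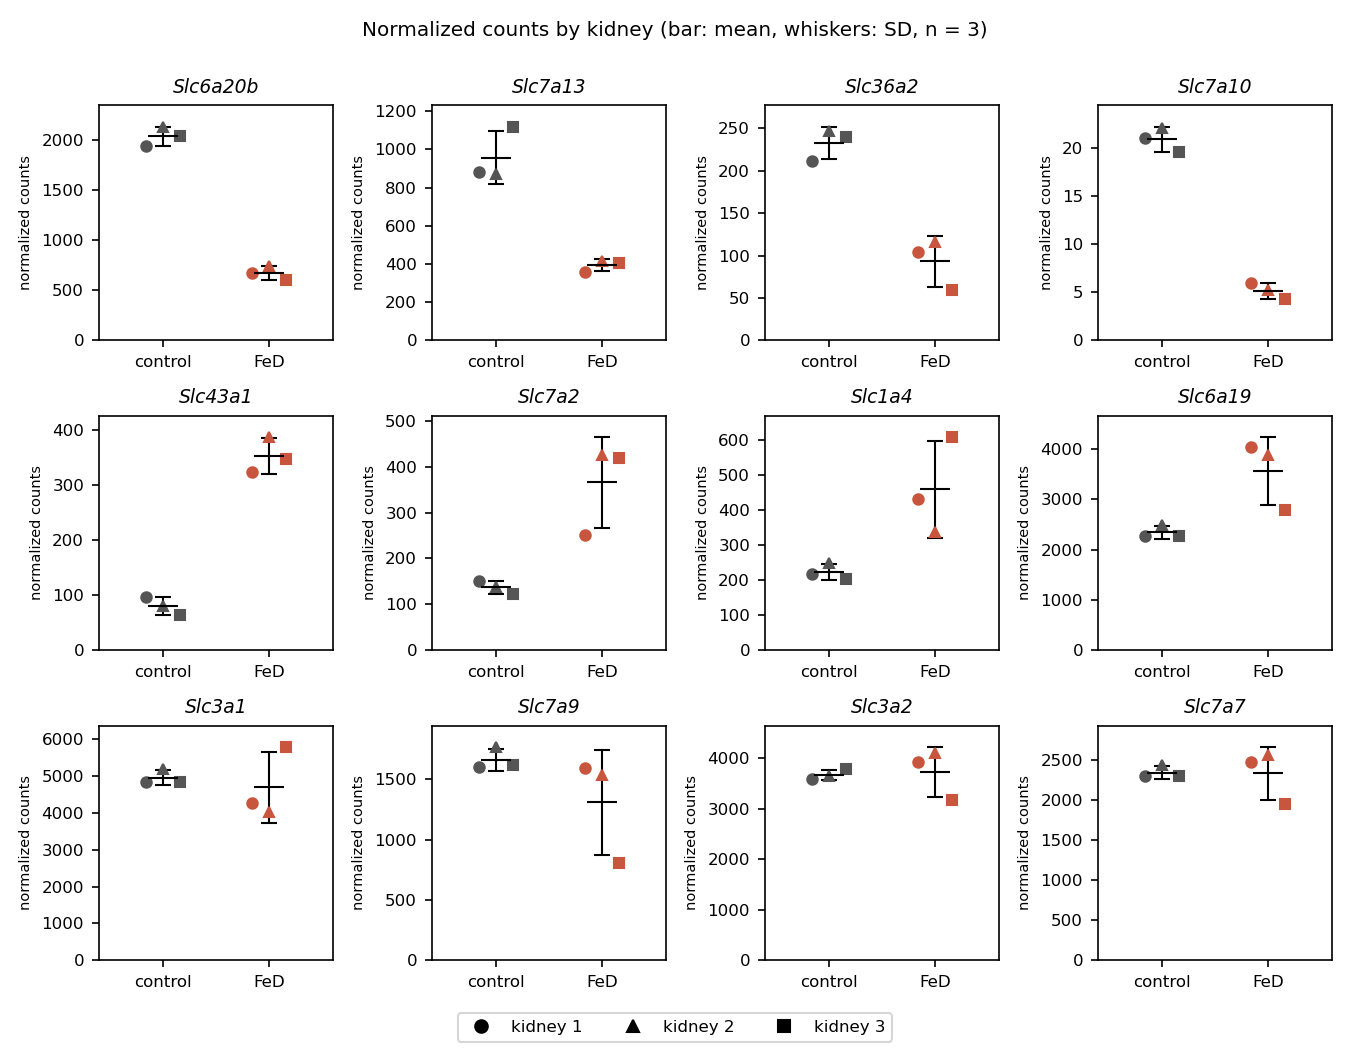
Normalized counts (y axis, starting at 0) of 12 transporters are shown for each control and FeD kidney, with horizontal bars for the mean and whiskers for the SD of 3 kidneys. The groups are well apart in Slc6a20b, Slc7a13, Slc36a2, Slc7a10 and Slc43a1, whereas FeD kidney 3 departs from the other FeD kidneys in Slc6a19, Slc3a1, Slc7a9, Slc3a2 and Slc7a7.

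On the basolateral side, 3 carriers of large neutral and aromatic amino acids fell in FeD kidneys. Slc43a2 (LAT4), a facilitated carrier of branched-chain amino acids and phenylalanine, had 5102, 5428 and 5819 normalized counts in control and 3475, 3297 and 2609 in FeD kidneys (log2 fold change -0.80, SE 0.11, adjusted P = 8.21e-04). Slc7a8 (LAT2), an exchanger of neutral amino acids, had 3179.7, 3536 and 3449 in control and 2134, 2569.5 and 1917 in FeD kidneys (log2 fold change -0.62, SE 0.11, adjusted P = 0.00209). Slc16a10 (TAT1), the carrier of aromatic amino acids, had 1187, 1264 and 1252 in control and 823, 857 and 795 in FeD kidneys (log2 fold change -0.58, SE 0.067, adjusted P = 3.54e-04). In these 3 genes every FeD kidney was below every control kidney. Slc38a3 (SNAT3), which takes up glutamine for ammonia production, had 1231, 1270.0 and 1198 normalized counts in control and 1548, 1744 and 1636 in FeD kidneys and rose (log2 fold change 0.41, SE 0.065, adjusted P = 0.00145).

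The heavy chain Slc3a2 and the light chain Slc7a7 (y+LAT1), the basolateral exchanger of basic amino acids, did not pass. Slc3a2 had 3589, 3655 and 3783 normalized counts in control and 3930.3, 4094 and 3172 in FeD kidneys (log2 fold change 0.021, SE 0.097, adjusted P = 0.874, 95% interval -0.20 to 0.24). Slc7a7 had 2292, 2428 and 2291 in control and 2477, 2559 and 1949 in FeD kidneys (log2 fold change -0.0066, SE 0.10, adjusted P = 0.962, 95% interval -0.24 to 0.22). In both genes FeD kidneys 1 and 2 lay above all controls and FeD kidney 3 below all controls. Slc7a6, the related light chain y+LAT2, had a log2 fold change of -0.23 and Slc6a13, a carrier of GABA and taurine, one of 0.15, and neither passed (adjusted P = 0.142 and 0.111).

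Among the carriers of cell uptake and exchange, the members that rose outnumbered those that fell. Those that rose include Slc43a3, whose known cargo is not an amino acid. Slc43a1 (LAT3), a facilitated carrier of branched-chain amino acids and phenylalanine, had 96.8, 80.8 and 64.1 normalized counts in control and 324, 388 and 348 in FeD kidneys (log2 fold change 2.13, SE 0.16, adjusted P = 6.26e-05). The lowest FeD kidney was over 3 times the highest control kidney, and the mean was 4.39-fold higher. Slc7a2 (CAT2), a carrier of arginine, lysine and ornithine, had 151, 138 and 123 normalized counts in control and 251, 426 and 419.5 in FeD kidneys (log2 fold change 1.41, SE 0.21, adjusted P = 0.00112). FeD kidney 1 was the lowest of its group but above all controls. Slc1a4 (ASCT1), an exchanger of alanine, serine, cysteine and threonine, had 219, 248 and 205 in control and 429.9, 338 and 608 in FeD kidneys (log2 fold change 1.04, SE 0.20, adjusted P = 0.00389). FeD kidney 3 was the highest. Without FeD kidney 3 its log2 fold change was 0.80, and without control kidney 3 it was 0.98, both under 2-fold, and the gene still passed (adjusted P = 0.00203 and 0.0229).

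Slc38a2 (SNAT2), a sodium-coupled carrier of small neutral amino acids that cells raise when amino acids run short, had 4188, 3694 and 3732 normalized counts in control and 5949.9, 5062 and 8458 in FeD kidneys (log2 fold change 0.75, SE 0.17, adjusted P = 0.00822). Its relative Slc38a4 had 160.1, 112 and 142 in control and 149, 264 and 312 in FeD kidneys (log2 fold change 0.80, SE 0.26, adjusted P = 0.0369). FeD kidney 1 lay among the controls for Slc38a4, and its call was lost without any one of the 3 control kidneys, without FeD kidney 2 or 3 and with the replicate number as a block. Slc43a3, whose known cargo is purine bases, had 1025, 1152 and 1019.6 in control and 1903, 2409 and 1826 in FeD kidneys (log2 fold change 0.94, SE 0.11, adjusted P = 3.92e-04) with no overlap of groups. Slc7a12, an exchanger of small neutral amino acids, had 399.7, 426 and 452 normalized counts in control and 494, 425 and 987 in FeD kidneys and did not pass (adjusted P = 0.123, log2 fold change 0.58). Only FeD kidney 3 was far above the controls. Without FeD kidney 3 its log2 fold change was 0.12 (adjusted P = 0.317), whereas without FeD kidney 2 it passed as higher (adjusted P = 0.0327).

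Slc7a10 (Asc-1), an exchanger of glycine, serine and other small neutral amino acids, was scarce, with 19.6 to 22.1 normalized counts in control and 6.00, 5.19 and 4.32 in FeD kidneys (log2 fold change -1.998, SE 0.32, adjusted P = 0.00165). These values rest on 20 to 22 raw counts per control kidney and 4 to 6 per FeD kidney, and 29.5% of its exon bases overlap Lrp3 on the opposite strand. The glutamine exchanger Slc1a5 (ASCT2) was abundant and fell modestly, from 2234, 2299 and 2326 in control to 1787, 1604 and 1632 in FeD kidneys (log2 fold change -0.45, SE 0.061, adjusted P = 7.62e-04). The cystine and glutamate exchanger Slc7a11 (xCT) had 49.8, 24.3 and 12.5 normalized counts in control and 13, 14.3 and 12.9 in FeD kidneys and did not pass (adjusted P = 0.101, log2 fold change -1.10). The controls spread widely and reached down to the level of the FeD kidneys. Its log2 fold change was -0.44 without control kidney 1 (adjusted P = 0.43) and -1.47 without control kidney 3, where it passed (adjusted P = 0.0293). The remaining 4 members, Slc7a5 (LAT1), Slc7a1 (CAT1), Slc1a3 (GLAST) and Slc38a1 (SNAT1), had log2 fold changes of -0.024, 0.088, -0.028 and -0.23, and none passed (adjusted P = 0.0896 to 0.941). The 95% interval of Slc7a5 was -0.54 to 0.49.

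Of the lysosomal and intracellular members, Slc38a9, the lysosomal arginine sensor of the mTORC1 pathway, had 499, 444 and 447 normalized counts in control and 843, 972 and 924 in FeD kidneys (log2 fold change 0.98, SE 0.091, adjusted P = 1.40e-04). Slc36a4, a high-affinity carrier of proline and tryptophan, had 162, 139 and 156 in control and 181, 266 and 275 in FeD kidneys (log2 fold change 0.66, SE 0.17, adjusted P = 0.0153), and its call was lost without control kidney 2 or 3 (adjusted P = 0.0659 and 0.0517). Slc36a1 (PAT1), the proton-coupled exporter of small amino acids from the lysosome, went the other way, with 1283, 1346 and 1388 in control and 877, 1023 and 699 in FeD kidneys (log2 fold change -0.63, SE 0.13, adjusted P = 0.00446). Slc38a10 also fell (log2 fold change -0.35, SE 0.058, adjusted P = 0.00203). The lysosomal glutamine carrier Slc38a7 had a log2 fold change of -0.30 and did not pass (adjusted P = 0.0575) except without FeD kidney 1 (adjusted P = 0.0287, log2 fold change -0.38), and Slc38a6 had one of 0.029 (adjusted P = 0.854). Slc38a9 was thus higher and Slc36a1 lower in every FeD kidney.

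Because carriers work in pairs or share substrates, 8 ratios of normalized counts were formed within each kidney. The ratio of Slc7a7 to its heavy chain Slc3a2 was 0.639, 0.664 and 0.606 in control and 0.630, 0.625 and 0.614 in FeD kidneys. These 6 values lay close together, although both genes varied between FeD kidneys. The ratio of Slc7a8 to the same heavy chain was 0.886, 0.967 and 0.912 in control and 0.543, 0.628 and 0.604 in FeD kidneys, without overlap. Slc7a13 against Slc3a1 was 0.183, 0.168 and 0.231 in control and 0.0842, 0.104 and 0.0697 in FeD kidneys. Slc7a9 against Slc3a1 was 0.331, 0.341 and 0.334 in control kidneys, a narrow range, and 0.374, 0.380 and 0.140 in FeD kidneys. FeD kidneys 1 and 2 were thus slightly above the controls and FeD kidney 3 far below them. Slc6a19 against Slc6a18 was 0.196, 0.201 and 0.193 in control and 0.301, 0.354 and 0.177 in FeD kidneys, with the same kidney low. Slc6a20b against Slc6a20a, which share part of their sequence, was 5.49, 6.31 and 5.27 in control and 2.17, 2.73 and 1.36 in FeD kidneys. Slc1a4 against Slc1a5 was 0.0978, 0.108 and 0.0880 in control and 0.241, 0.211 and 0.372 in FeD kidneys, and Slc43a1 against Slc43a2 was 0.0190, 0.0149 and 0.0110 in control and 0.0932, 0.118 and 0.133 in FeD kidneys. In 5 of the 8 ratios the groups did not overlap. For single counts this held in 58.1% of all tested genes, which is no background for ratios of chosen genes. An exact two-sided permutation test of 3 against 3 kidneys gave P = 0.1 for each of these 5, the smallest it can give, and 0.16 after adjustment over the 8 ratios. For Slc1a4/Slc1a5 and Slc43a1/Slc43a2 the single genes fixed this result. In both, every FeD kidney lay above all controls for the first gene and below them for the second. These 2 ratios thus add nothing to the single calls.

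**Figure D3:**
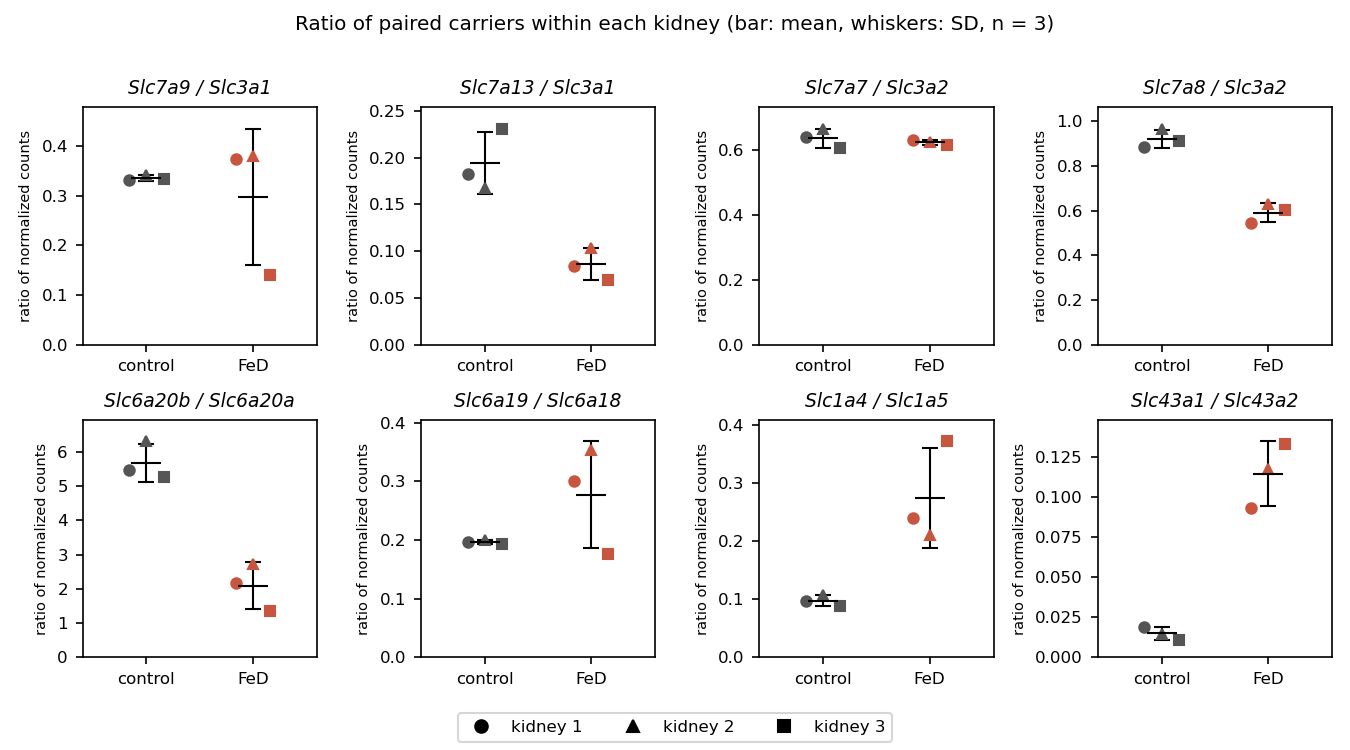
Each panel plots 1 ratio of normalized counts (y axis, starting at 0) for every control and FeD kidney, with bars for the mean and whiskers for the SD of 3 kidneys. The ratios Slc7a13/Slc3a1, Slc7a8/Slc3a2 and Slc6a20b/Slc6a20a are lower in every FeD kidney, Slc1a4/Slc1a5 and Slc43a1/Slc43a2 are higher in every FeD kidney, and Slc7a9/Slc3a1 and Slc6a19/Slc6a18 are split by FeD kidney 3.

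Levels of different genes were compared per exon length, as normalized CPM per kb of exon, for the 38 members whose symbol matched a single gene of the mm9 annotation (Slc38a9 did not). In control kidneys Slc6a18 was highest at 151 ± 5.52 (SD, n = 3), followed by Slc3a1 at 120.2 ± 4.90, Slc3a2 at 69.6 ± 1.87 and Slc7a7 at 57.7 ± 1.95. Slc7a8 at 47 ± 2.58 and Slc38a2 at 46.9 ± 3.33 came next and did not differ beyond their spread. Slc7a11 was lowest at 0.144 ± 0.0951. In FeD kidneys Slc6a18 at 170.0 ± 30.8 and Slc3a1 at 114 ± 23.2 still led. By mean, Slc38a2 at 78.6 ± 21.3 came before Slc3a2 at 70.7 ± 9.31 and Slc7a7 at 57.4 ± 8.16, but the place of Slc38a2 differed between kidneys. Slc3a2 was above Slc7a7 in every FeD kidney. Of the summed level of the 38 members, Slc3a2 held 8.30%, 8.95% and 6.35% and Slc7a7 6.82%, 7.29% and 5.09% there. Slc6a19 went from rank 13 to rank 6 (39.9 ± 7.52), Slc7a8 from rank 5 to rank 8, and Slc6a20b from rank 15 (20.7 ± 0.961) to rank 23 (6.82 ± 0.696). Summed over the 38 members, the level was 887, 925 and 913 in control and 896, 866 and 946 in FeD kidneys, and these totals overlapped (exact permutation test, two-sided, P = 0.9). The sum of cell uptake and exchange was 133, 126 and 127 in control and 165, 160.3 and 212 in FeD kidneys. It was higher in every FeD kidney (exact permutation P = 0.1, the smallest possible, and 0.35 after adjustment over 7 sums), and Slc38a2 alone made up 46.9 of the control and 78.6 of the FeD mean. Slc43a3, whose known cargo is purine bases, made up 13.4 of the control and 25.7 of the FeD mean. The 5 lysosomal or intracellular members with a length summed to 60.6, 62.9 and 62.9 in control and 50.5, 50.6 and 46.3 in FeD kidneys, without overlap and with the same exact P. This sum leaves out Slc38a9, which rose, and Slc38a10 alone made up 37.2 of the control mean of 62.1. Sums of the brush border (429.9, 457 and 444 against 421, 387 and 464) and basolateral members (264, 279 and 279 against 259, 269 and 223) overlapped.

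**Figure D4:**
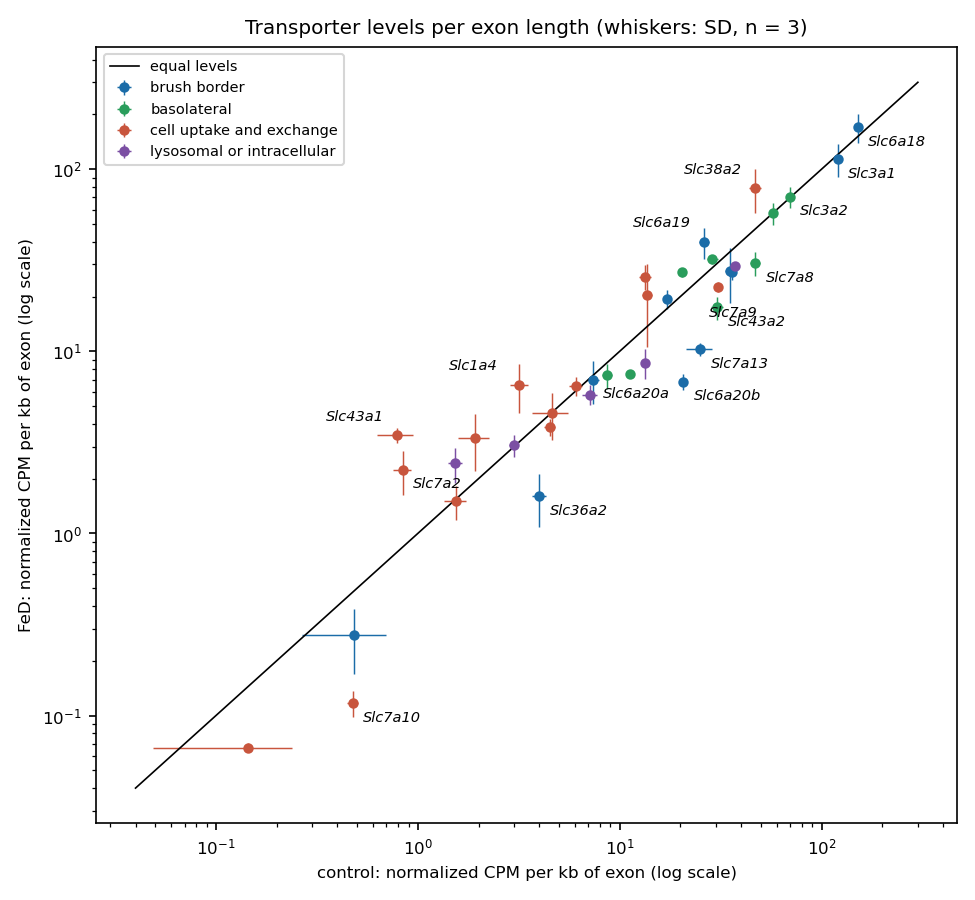
Mean levels of the 38 members with an exon length, in normalized CPM per kb of exon, are plotted for FeD (y axis) against control kidneys (x axis), both on log scales, with whiskers for the SD of 3 kidneys. Points on the line have equal levels. Slc6a18 and Slc3a1 lie near the line at the top, Slc43a1, Slc7a2 and Slc1a4 above it at lower levels, and Slc6a20b, Slc7a13 and Slc36a2 below it.

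Several members are neighbours in the genome, and 8 pairs lay within 1 Mb of each other in mm9. In 3 pairs both genes were called in the same direction. Slc36a2 and Slc36a1, 19272 bases apart on chr11, both fell, Slc43a1 and Slc43a3, 72984 bases apart on chr2, both rose, and Slc38a2 and Slc38a4, 295124 bases apart on chr15, both rose. In the other 5 pairs 1 gene was called and its neighbour was not. Slc6a19 rose while Slc6a18, 1721 bases away on chr13, did not pass. Slc6a20b fell while Slc6a20a, 3556 bases away on chr9, did not pass. Slc38a1 next to Slc38a2, Slc7a9 near Slc7a10 and Slc7a7 near Slc7a8 likewise did not pass beside a called neighbour. In no pair were the genes called in opposite directions. Of the 39 members 53.8% were called, beside 45.7% of all tested genes, and the call of Slc38a4 was lost under several alternatives. Whether neighbours moved together was not tested.

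Promoters of 29 of the 39 members were found in a RefSeq table of the GRCm38.p6 build, each covering 250 bases before to 50 after a gene start. The promoter of Slc43a1 is shown because this gene rose most, and those of Slc1a4 and Slc7a11 are shown because they hold the amino acid response element, the site through which ATF4 acts in amino acid shortage. Sequences run 5′ to 3′ on the gene's strand, and capitals mark a motif found on either strand.
Slc43a1, chr2:84840073-84840372, plus strand: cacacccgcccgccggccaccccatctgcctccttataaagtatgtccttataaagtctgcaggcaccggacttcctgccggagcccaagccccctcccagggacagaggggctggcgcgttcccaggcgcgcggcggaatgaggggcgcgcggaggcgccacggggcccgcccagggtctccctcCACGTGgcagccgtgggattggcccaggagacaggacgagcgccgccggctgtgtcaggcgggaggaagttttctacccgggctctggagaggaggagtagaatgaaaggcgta
Slc1a4, chr11:20332664-20332963, minus strand: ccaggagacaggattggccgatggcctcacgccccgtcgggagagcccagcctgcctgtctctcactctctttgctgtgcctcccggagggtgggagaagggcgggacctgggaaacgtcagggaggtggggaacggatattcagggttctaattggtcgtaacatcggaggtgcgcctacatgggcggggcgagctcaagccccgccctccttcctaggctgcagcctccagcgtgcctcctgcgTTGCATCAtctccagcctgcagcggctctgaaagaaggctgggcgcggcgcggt
Slc7a11, chr3:50443564-50443863, minus strand: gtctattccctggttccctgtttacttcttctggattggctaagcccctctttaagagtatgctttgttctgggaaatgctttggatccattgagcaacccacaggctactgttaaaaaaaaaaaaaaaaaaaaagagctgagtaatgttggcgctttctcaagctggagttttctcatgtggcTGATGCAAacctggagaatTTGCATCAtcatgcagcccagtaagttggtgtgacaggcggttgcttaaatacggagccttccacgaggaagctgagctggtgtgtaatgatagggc

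All motifs were searched on both strands, and positions are counted from 0 at the gene start. The capitals of Slc43a1 mark ACGTG, the core of the hypoxia response element, once on each strand and overlapping. This short motif was in 19.6% of all promoters and in 13 of the 41 promoters of members, which belong to 11 genes, of which Slc43a1 rose, Slc36a1 and Slc38a10 fell and 8 did not pass. The amino acid response element TTGCATCA was in 0.895% of all promoters and in 4 of the 41 promoters of members, which belong to 3 genes. Slc1a4 has 1 copy, at -4 and so across its gene start, and rose. Slc7a11 has 2 copies, at -66 and -47. Slc7a7 has the motif in 2 of its 5 promoters, but these overlap and hold the same single site, which is counted in both. Neither gene passed. A match is only a match of letters.

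The members varied more between FeD kidneys than between controls. The median coefficient of variation of their normalized counts was 6.16% in control and 15.1% in FeD kidneys, beside 5.98% and 11.03% over all tested genes. FeD kidney 3 was the one farthest from its group in 20 of the 39 members, or 51.3%, against 44.1% of all tested genes. FeD kidney 3 was also the single FeD kidney with Xist counts, and the part of this in the results was not tested beyond the fit with a term for it. Without FeD kidney 3, 5 more members passed, Slc3a1, Slc6a20a and Slc7a6 with lower and Slc6a13 and Slc15a2 with higher values in FeD, and the call of Slc38a4 was lost. In that fit calls rose over all tested genes too, from 6924 of 15145 to 7754 of 15375. Without FeD kidney 2, the kidney with adrenal genes, Slc6a18 and Slc7a12 passed as higher, and the call of Slc38a4 was lost.

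**Figure D5:**
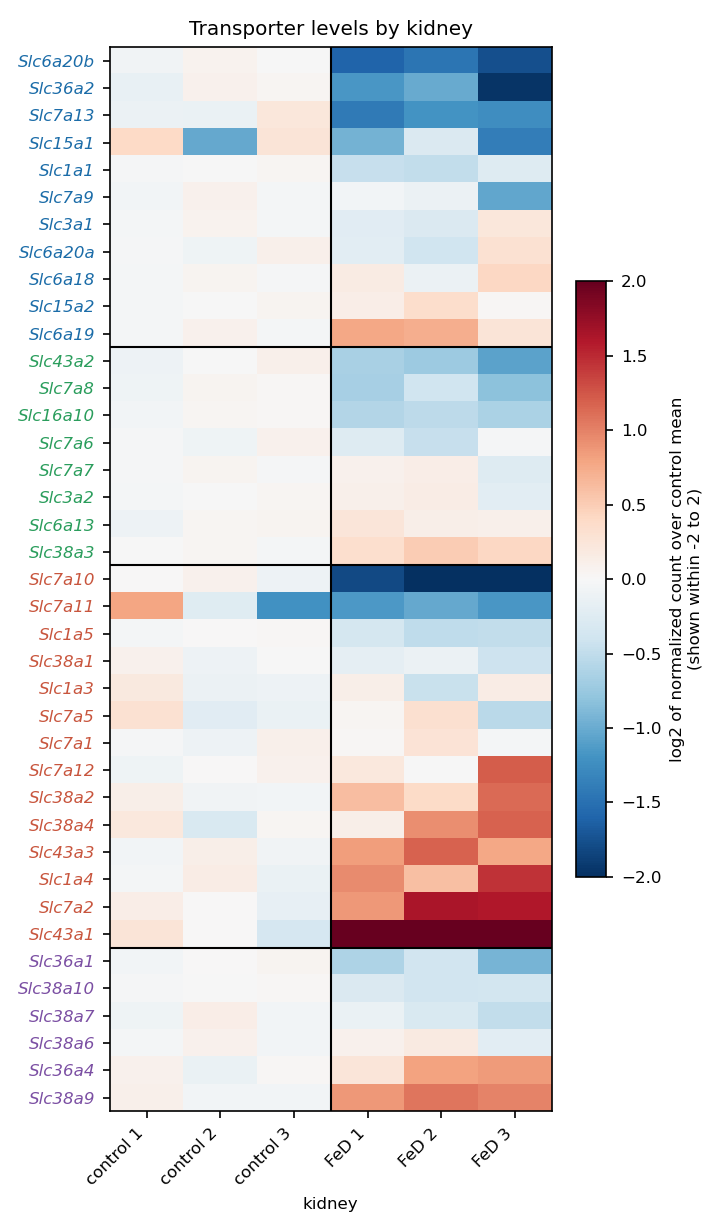
Each row is a transporter, ordered by place and log2 fold change with names coloured by place, each column is a kidney, and the colour gives the log2 of its normalized count over the control mean, shown within -2 to 2. Control columns are pale apart from Slc7a11, Slc15a1 and a few others, and the FeD 3 column differs from FeD 1 and 2 in Slc7a9, Slc3a1, Slc6a20a and Slc7a12.

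Genes that act with these carriers were read from the same fit. Of 14 peptidases, 3 rose and 4 fell (50% called, beside 45.7% of all tested genes), at a median of -0.15 on the log2 scale, and none changed 2-fold. Most of them sit at the brush border and split peptides into the amino acids to be taken up, but Pepd, Lap3 and Cndp2 are enzymes of the cytosol, and Pepd and Lap3 were among the 4 that fell. Pepd, which splits dipeptides ending in proline inside the cell, had 3302, 3531 and 3623 normalized counts in control and 1878, 1876 and 1911 in FeD kidneys (log2 fold change -0.88, SE 0.058, adjusted P = 3.53e-05). Of 8 partners and regulators of carrier traffic, 3 rose and 3 fell (75% called, median -0.095). The scaffold Pdzk1, which holds transporters at the brush border, went from 19552, 21176 and 21499 in control to 8786, 7846 and 9717 in FeD kidneys (log2 fold change -1.24, SE 0.097, adjusted P = 6.66e-05). Tmem27 (collectrin), the kidney partner of Slc6a19, had 7631, 8358 and 8368 in control and 8378, 8281 and 8092 in FeD kidneys and did not pass (adjusted P = 0.809, log2 fold change 0.023).

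Of 30 other amino acid carriers, 24 were tested, 4 rose and 5 fell (37.5% called, beside 45.7% of all tested genes, median -0.017), and the 9 calls became 5 without control kidney 1 or 2. Over all tested genes, the calls went from 6924 of 15145 to 5311 of 15301 and 5019 of 15394 in those fits. Slc6a12, a carrier of betaine and GABA, had 592, 609.5 and 673 normalized counts in control and 99.98, 77.9 and 107 in FeD kidneys (log2 fold change -2.70, SE 0.13, adjusted P = 8.86e-06). Slc6a6, the taurine carrier, had 5744, 6168 and 6442 in control and 13015, 12996 and 15372 in FeD kidneys (log2 fold change 1.17, SE 0.093, adjusted P = 6.89e-05), and the scarce Slc7a3 (CAT3) had 12.5, 13.3 and 18.7 in control and 44, 40.3 and 24.2 in FeD kidneys (log2 fold change 1.26, SE 0.33, adjusted P = 0.0149). The osmolyte carriers Slc6a12 and Slc6a6 thus moved in opposite directions. Of 28 genes of lysosomal amino acid sensing, 9 rose and 5 fell (50% called, beside 45.7% of all tested genes, median -0.012) and none by 2-fold. The smallest adjusted P values were those of the Ragulator subunits Lamtor5 and Lamtor2, with log2 fold changes of -0.74 and -0.73 (adjusted P = 9.80e-05 and 4.00e-04).

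Of 22 genes of the response to amino acid shortage, 9 rose and 6 fell (68.2% called, median 0.17). Ddit4, an inhibitor of mTORC1 that is also a hypoxia target, had 724, 695 and 811 normalized counts in control and 3333, 3249.9 and 2687 in FeD kidneys (log2 fold change 2.05, SE 0.10, adjusted P = 1.02e-05). The stress factor Atf3 (adjusted P = 0.00127, log2 fold change 1.34) and the pseudokinase Trib3 (adjusted P = 0.00582, log2 fold change 1.203) rose and the stress gene Nupr1 fell (adjusted P = 5.16e-05, log2 fold change -1.34). Asns, the asparagine synthetase that is a standard target of ATF4, had 129, 170.4 and 141 in control and 168, 166 and 127 in FeD kidneys and did not pass (adjusted P = 0.777, log2 fold change 0.064). Members of this list therefore went both ways. Of 12 transcription factors of tubule and nutrient control, 7 rose and 1 fell (median 0.26), beside 22.4% higher and 23.3% lower among all tested genes, and the 8 calls became 5 without control kidney 1 or 3. Over all tested genes, the calls went from 6924 of 15145 to 5311 of 15301 and 5076 of 15378 in those fits. The factor that fell was the metabolic nuclear receptor Esrra, with 2312, 2194 and 2682 in control and 1265, 1005 and 1011 in FeD kidneys (log2 fold change -1.13, SE 0.11, adjusted P = 1.75e-04). Without FeD kidney 2, the called genes numbered 10 of the other carriers, 16 of lysosomal sensing, 16 of the shortage response and 7 of the transcription factors. Over all tested genes, 6543 of 15330 were called in that fit.

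Markers of the tubule segments that carry these transporters moved unevenly. The 3 markers of the early proximal tubule summed to 24815, 27790.3 and 25619.9 normalized counts in control and 25869, 26738 and 24586 in FeD kidneys, but within them the glucose carrier Slc5a2 fell (adjusted P = 3.34e-06, log2 fold change -4.89) and the bicarbonate carrier Slc4a4 rose (adjusted P = 0.00149, log2 fold change 0.57). Both markers of the middle part, the organic anion carriers Slc22a8 and Slc22a6, fell. Of the 5 markers of the late part, where Slc7a13 is found, 1 rose and 2 fell. Slc22a7 (log2 fold change -3.97, adjusted P = 8.86e-06) and Acy3 (-1.11, adjusted P = 1.55e-04) fell, and Cyp7b1 rose (0.91, adjusted P = 0.00224). Their sum was 65854, 70246 and 67823 in control and 61741, 65284 and 62195 in FeD kidneys. Napsa and Slc27a2, which did not pass, made up most of it (control means 36836 and 27296). Markers of other cells also moved. The 4 markers of the connecting tubule and collecting duct summed to 25600.3, 26314.6 and 39865 in control and 49303, 35982 and 55627.5 in FeD kidneys, with overlap, and 3 of the 4 rose. Sums were lower in every FeD kidney for the 2 markers of the distal convoluted tubule (21135 to 26496 in control and 5890 to 9213 in FeD kidneys). The same held for the 4 of endothelium (10099.6 to 10553 and 6640 to 8777) and the 2 of cell division (1376 to 1655 and 303 to 417). It also held for the 2 of adipocytes, Plin1 and Adipoq (608 to 697 and 184 to 274), which both fell. The sum of the 5 stroma markers was lower too (31686 to 33535 and 20944 to 28763), but 3 of them rose and only Col3a1 and Col1a1 fell. Over all tested genes, 58.1% had groups of single counts that did not overlap. The part of these shifts in the transporter results, the sums by place included, was not tested.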

How the data were processed

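Kidneys of 3 control and 3 FeD pups, grouped by their labels, were compared. Per the labels and the study's methods, the authors isolated RNA with TRIzol, selected polyadenylated RNA, prepared TruSeq libraries, trimmed reads (CASAVA 1.8.2, Trimmomatic), aligned them to mm9 with TopHat2 2.0.11 and deposited raw read counts per gene from HTSeq, not normalized and not pooled. The annotation, counting mode and strand setting are not given in the sources used here, so overlapping genes and near-identical copies are uncertain. The labels give 1 month of diet before mating, whereas the study's methods give another length.

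The deposited counts were fitted with edgeR 4.0.16 (R 4.3.3). Its filterByExpr left 15145 genes, TMM scaled the libraries, and the quasi-likelihood test compared FeD with control, with P values adjusted over all tested genes (Benjamini-Hochberg). Members "rose" or "fell" at an adjusted P under 0.05. SE is the size of the log2 fold change over the square root of F. Depth was 13732173 to 20853293 counts. Exon lengths and overlaps came from GENCODE for mm9. Pairs of libraries of a group differed by 3.77 to 30.4 in chi-square per degree of freedom, where copies would give about 1. The test was tried on simulated counts first. Members given by kidney are those past 2-fold, named subunits and further members of each group, the latter chosen after their values were seen; in each list, genes past 2-fold or the 2 with the smallest adjusted P, and Tmem27 and Asns besides; some genes and a motif are not reported here. The members, lists and rules were chosen with earlier results of these data known. Alternatives were DESeq2 1.42.0 or its size factors, library size alone, other filters, the replicate number as a block, a term for Xist (added after the counts were seen) and each kidney left out.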

Additional observations from a re-analysis of the deposited data

How the results depend on the processing

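Over 13 alternatives and 39 members, 470 of 506 values kept their direction and their side of the threshold. Of the 21 called members, 19 passed under every alternative that tested them (Slc7a10 was not tested with at least 10 counts in every kidney), and the exceptions were Slc38a4 and Slc36a4. When each kidney was left out, 8 to 11 members were higher and 11 to 14 lower, 2 to 6 were at least 2-fold higher (6 without FeD kidney 1) and 4 to 5 at least 2-fold lower. Calls among other amino acid carriers ranged over 5 to 10 (5 without control kidney 1 or 2, against 9) and among the transcription factors over 5 to 8 (5 without control kidney 1 or 3, against 8). Over all tested genes, 5311 of 15301, 5019 of 15394 and 5076 of 15378 were called without control kidney 1, 2 and 3. Without FeD kidney 1, 2 and 3 they were 6384 of 15366, 6543 of 15330 and 7754 of 15375. With all 6 kidneys, 6924 of 15145 were called. The cause was not tested. The replicate numbers do not pair animals, since the pups had differently fed dams. Deviations of same-numbered kidneys correlated at -0.16, 0.0029 and -0.036, and those of kidneys with different numbers at -0.086 to 0.16. Deviations of 3 kidneys from their own mean are tied to each other, so these values cannot decide whether a preparation batch was shared. With the replicate block 9 members were higher and 11 lower, and the call of Slc38a4 was lost (log2 fold change 0.76, adjusted P = 0.053); no other call changed.

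The sign turned only in members that were not called, all within 0.1 of 0 in the comparison of all 6 kidneys. With the term for Xist, Slc1a3 was at 0.036, Slc3a2 at -0.053 and Slc38a6 at -0.021 (log2 fold change). Slc7a7 was at 0.0015 with DESeq2's size factors, at 0.0042 with at least 10 counts in every kidney and at 0.00084 with DESeq2. When each kidney was left out, the log2 fold change ran from -0.12 to 0.15 for Slc1a3, -0.24 to 0.042 for Slc3a1, -0.029 to 0.14 for Slc3a2, -0.29 to 0.089 for Slc6a20a, -0.20 to 0.20 for Slc7a5, -0.059 to 0.12 for Slc7a7 and -0.030 to 0.15 for Slc38a6.

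Slc7a10, Slc7a11 and Slc15a1 had 4 to 52 raw counts per kidney, and their log2 fold changes are the least precise of the 39 (SE 0.32 to 0.49).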
